A study of Mus musculus with 7 samples.

Results

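The insulin-like growth factor (Igf) genes examined here were 8 of the 29686 genes measured: the ligand Igf1, its receptor Igf1r, and 6 secreted binding proteins, Igfbp2 to Igfbp7. They were chosen by name, with earlier results of these data known, and the value of each gene was the mean RPKM (reads per kilobase of exon and per megareads sequenced) of its exons, weighted by exon length. Igf1 and the related ligand Igf2 activate Igf1r, a receptor tyrosine kinase at the cell surface, which signals through insulin receptor substrate adaptors, PI3-kinase and Akt to growth and survival. The binding proteins hold the ligands outside the cell and set how much reaches the receptor, and proteases release ligand by cutting them. Fibroblasts secrete several binding proteins, and Igfbp2 is well known in the embryonic brain. Media for neural stem cells commonly supply insulin, which can also act on this receptor family.

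RNA-seq was read in 7 mouse cell populations, 1 library each, from a study of fibroblasts turned into neural stem cells (NSC) with Oct4, Sox2, Klf4 and Myc (OSKM). The mouse embryonic fibroblasts (MEF) were of strain A12 (Mbd3 flox/-), so they carried a deleted and a floxed Mbd3 allele. Day 6 was sorted tdTomato-positive cells from B6/129 MEFs carrying Nanog-CreER, Rosa26-TdTomato and the doxycycline-driven Col1a-OSKM transgene. They had been given doxycycline and 4OHT, which activates CreER, so tdTomato marks cells in which Nanog-CreER had been active; feeder cells were not used. The OSKM NSC had the same strain and transgenes, were subcloned by hand without feeders, and formed a Tomato-positive and a Tomato-negative library. Brain NSC were primary BDF2 cells grown with B27, N2, bFGF and EGF, from embryos given as E12.5 in one label and E13.5 in the protocol. The induced pluripotent stem cells (iPSC) were of strain A12 (Mbd3 flox/-), with MEF feeders entered with question marks, and the embryonic stem cells (ESC) were line v6.5 on MEF feeders. Strain and transgenes therefore differ along with cell type in most comparisons, and these cannot be told apart.

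Depth was not stated in the labels and was inferred from the steps of the values as 19 to 58 megareads per library, with Tomato-positive NSC the shallowest and iPSC the deepest (46 megareads on day 6 and 45 in MEF). With 1 library per population there was no replicate error and no test. The 95% intervals given below come from reads recovered over separate exons and cover counting error only. All 9 neural stem cell markers reached 2 RPKM in each of the 3 NSC libraries, with summed levels of 4279.9 to 11297 RPKM, against 50.9 to 260.3 RPKM elsewhere. The 8 pluripotency markers summed to 7147 RPKM in iPSC, 9092 RPKM in ESC and 1095 RPKM on day 6, against 4.71 to 11.5 RPKM in the others. Most of the day 6 sum was Pou5f1 (Oct4), at 886 RPKM, while the other markers read 9.62 to 67.2 RPKM. Oct4 is also a factor of the OSKM transgene, and reads of the transgene and of the native gene were not separated. The 12 fibroblast markers summed to 40361 RPKM in MEF and to 72.0 to 5046 RPKM elsewhere. All 12 also reached 2 RPKM in ESC, at 5046 RPKM in sum, and in Tomato-positive NSC, at 2337 RPKM in sum, and Lum and Dcn read 308 RPKM and 741 RPKM in ESC against 154 RPKM and 374 RPKM in MEF. The MEF library also held all 10 leukocyte markers at 2 RPKM or more, summed to 3965 RPKM against 9.79 to 172 RPKM elsewhere, and muscle markers summed to 429 RPKM against 2.64 to 28.0 RPKM. Epithelial markers summed to 1856 RPKM on day 6 against 0.685 to 798 RPKM elsewhere, and endothelial markers ranged from 5.68 RPKM in brain NSC to 179 RPKM in ESC.

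The RefSeq upstream sequences (build GRCm38.p6) of Igfbp2, Igfbp3, Igfbp4, Igfbp5 and Igfbp7 are shown because these 5 binding protein genes were all at least 21.7 times lower on day 6 than in MEF. Each is the 250 bases that end at the base before the annotated start, written 5′ to 3′ on the gene's strand, with matches to the searched motifs in capitals. Igfbp2 (chr1:72824230-72824479, plus strand) and Igfbp5 (chr1:72874866-72875115, minus strand) are convergent neighbours whose gene bodies lie 5457 bases apart. Igfbp3 is at chr11:7213924-7214173 on the minus strand, Igfbp4 at chr11:99040994-99041243 on the plus strand and Igfbp7 at chr5:77408046-77408295 on the minus strand.
Igfbp2: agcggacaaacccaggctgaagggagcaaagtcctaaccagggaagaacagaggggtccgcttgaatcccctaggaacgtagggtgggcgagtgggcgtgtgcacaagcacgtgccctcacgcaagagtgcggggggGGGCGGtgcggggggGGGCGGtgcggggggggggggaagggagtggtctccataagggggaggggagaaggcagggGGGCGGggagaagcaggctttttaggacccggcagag
Igfbp3: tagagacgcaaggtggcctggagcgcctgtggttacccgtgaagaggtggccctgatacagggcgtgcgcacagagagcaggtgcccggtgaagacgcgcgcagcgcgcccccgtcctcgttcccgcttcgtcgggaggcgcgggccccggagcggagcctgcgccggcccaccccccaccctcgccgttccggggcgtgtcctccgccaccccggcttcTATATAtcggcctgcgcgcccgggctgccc
Igfbp4: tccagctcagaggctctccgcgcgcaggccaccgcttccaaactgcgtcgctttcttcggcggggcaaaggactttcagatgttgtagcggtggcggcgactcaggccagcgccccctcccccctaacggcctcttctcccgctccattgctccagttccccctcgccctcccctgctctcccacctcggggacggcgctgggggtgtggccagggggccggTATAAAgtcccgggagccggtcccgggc
Igfbp5: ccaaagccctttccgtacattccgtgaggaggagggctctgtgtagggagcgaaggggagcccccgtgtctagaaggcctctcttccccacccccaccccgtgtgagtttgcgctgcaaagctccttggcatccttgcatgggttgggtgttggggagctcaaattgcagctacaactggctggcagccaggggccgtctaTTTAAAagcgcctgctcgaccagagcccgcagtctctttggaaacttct
Igfbp7: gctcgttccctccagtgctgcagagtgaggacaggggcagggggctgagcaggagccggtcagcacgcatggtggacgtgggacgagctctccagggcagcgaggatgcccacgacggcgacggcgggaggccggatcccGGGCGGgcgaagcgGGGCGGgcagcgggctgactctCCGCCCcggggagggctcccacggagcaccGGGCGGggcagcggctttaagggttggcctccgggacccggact
The motifs searched on both strands were the TATA box TATAAA with its variant forms TATATA as well as TTTAAA, the GC box spelled GGGCGG, and the CCAAT box; no matches shown overlap. The Igfbp2 window shown held GGGCGG at 3 places and Igfbp7 at 4, of which 1 was on the opposite strand and reads CCGCCC. RefSeq gives Igfbp2 another start, whose window (chr1:72825137-72825386) held none of these motifs and had an observed to expected CpG ratio of 0.661. Igfbp3 held TATATA starting 30 bases before the start, Igfbp4 held TATAAA at 28 bases and Igfbp5 held TTTAAA at 49 bases. Of 32851 mouse promoter windows of this length, 32.7% held GGGCGG, 12.4% TATAAA, 5.25% TATATA, 12.1% TTTAAA and 33.8% CCAAT. These matches describe the letters and not binding. The ratio of observed to expected CpG dinucleotides was 0.608 for Igfbp2, 0.958 for Igfbp3, 0.748 for Igfbp4, 0.463 for Igfbp5 and 0.788 for Igfbp7, each above the median of all windows, 0.374.

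The main pattern over the 7 populations was a low level of most of these genes on day 6. Igfbp2, Igfbp3, Igfbp4, Igfbp5, Igfbp7 and Igf1 were 21.7 to 227 times lower on day 6 than in MEF, and Igfbp2 to Igfbp5 stood 22.6 to 416 times higher in the OSKM NSC libraries than on day 6. Igfbp6 and Igf1r did not share this pattern. Low levels were not particular to day 6. Igfbp3, Igfbp4 and Igfbp5 read 4.98, 2.91 and 0.884 RPKM in iPSC, against 5.00, 1.67 and 0.391 RPKM on day 6. Igf1 was lower in iPSC and brain NSC than on day 6. Over all 5 exons Igfbp7 was lower in brain NSC, at 4.66 RPKM against 8.58 RPKM on day 6. That order leans on its 3′ exon, which shares bases with another gene and held 181 of the 279 day 6 reads. Its second exon went the other way, at 2.36 RPKM in brain NSC against 0 RPKM on day 6. Igfbp2 was lowest on day 6, and it made up 92.7% of the summed binding protein level in iPSC. The summed level of the 6 binding proteins was 4335 RPKM in MEF, 114 RPKM on day 6, 2255 RPKM in Tomato-positive NSC, 3152 RPKM in Tomato-negative NSC, 2657 RPKM in brain NSC, 463 RPKM in iPSC and 975 RPKM in ESC. In bulk RNA, fewer cells that express a gene and less RNA per cell cannot be told apart.

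**Figure D1:**
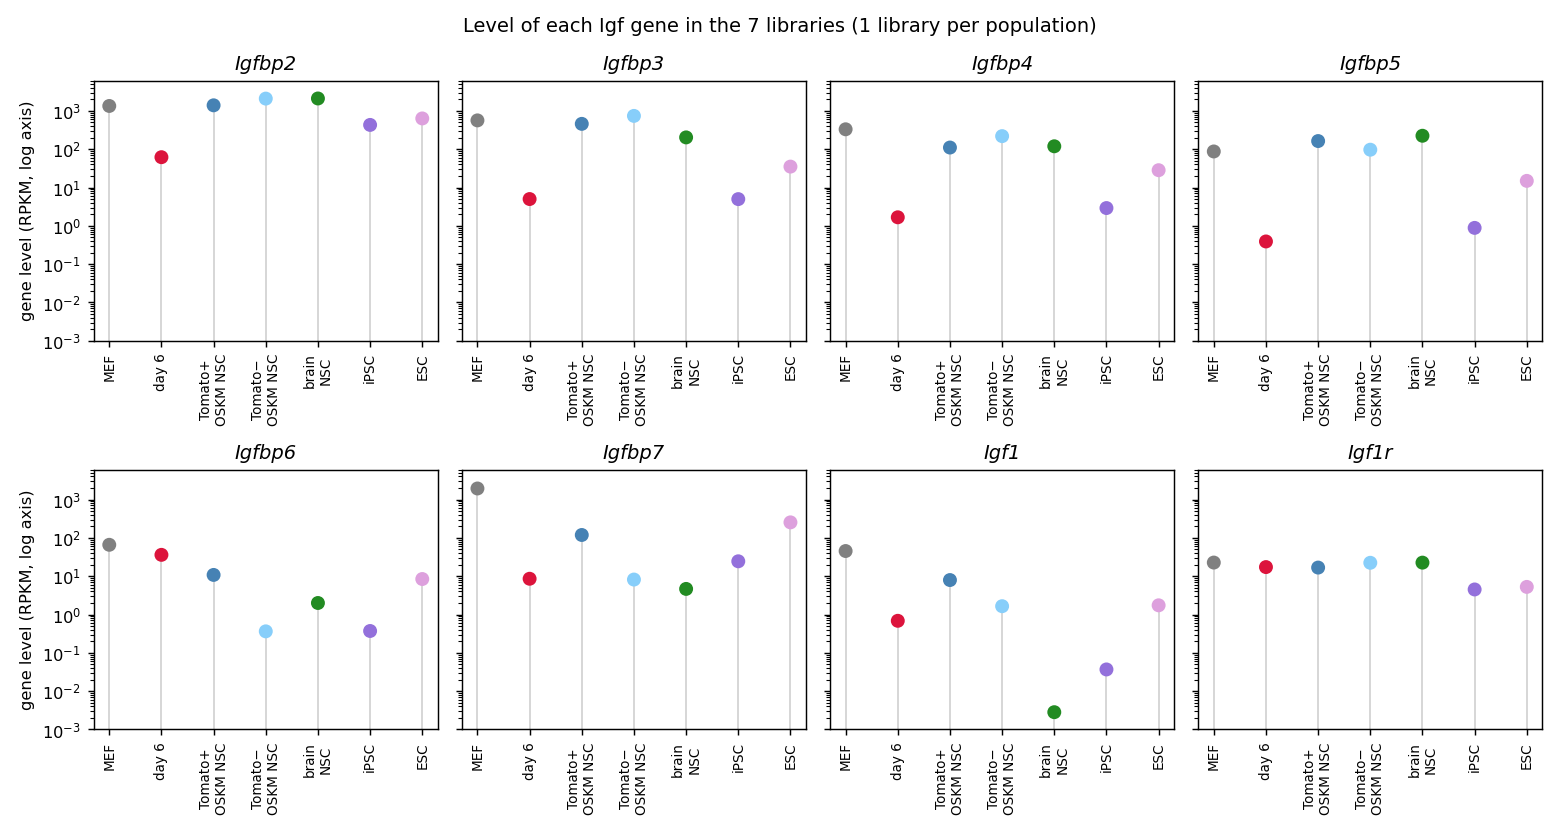
Level of each of the 8 genes in the 7 libraries, in RPKM on a log axis, 1 point per library and no replicates. Igfbp2 to Igfbp5 and Igfbp7 drop on day 6, for example Igfbp4 at 1.67 RPKM on day 6 against 330.4 RPKM in MEF, while Igf1r stays between 4.51 and 22.7 RPKM in all 7 libraries.

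A gene was counted as higher or lower at a 4-fold ratio of RPKM + 1, if it reached 2 RPKM in either library. Shares of all genes, here and below, are shares of the genes that reached it, 16154 for day 6 against MEF. The 8 genes and the pathway lists were counted whole, with genes under 2 RPKM in both libraries kept. Of the 8 genes, 6 to 8 reached 2 RPKM in a comparison. On day 6 against MEF, 0 of the 8 genes were higher and 6 were lower, where 8.23% of all genes were higher and 16.1% lower. The median log2 ratio of the 8 was -5.38, beside -0.13 over all genes compared. Because the genes were picked with results of these data known, these counts are a description and nothing is read from their excess over the background. The fibroblast markers moved with them, at 347 RPKM in sum on day 6 (9 of 12 at 2 RPKM or more) against 40361 RPKM in MEF (12 of 12), and their part in the result was not tested.

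Igf1, the ligand, was high in MEF and low or at the counting floor in every other library. Its level was 45.4 RPKM in MEF, 0.686 RPKM on day 6, 7.94 RPKM in Tomato-positive NSC, 1.65 RPKM in Tomato-negative NSC, 0.00283 RPKM in brain NSC, 0.0369 RPKM in iPSC and 1.74 RPKM in ESC. The brain NSC value rests on 1 read and the iPSC value on 19 reads. MEF therefore stood above every other library, and the ESC and Tomato-negative NSC values differed by less than counting error. Day 6 was 66.2 times lower than MEF in the gene value, a log2 ratio of -4.78. Reads over separate exons gave a smaller difference, 39.2 to 49.2 times lower (95% interval). The leukocyte markers described above were also highest in MEF, and macrophages are a known source of Igf1; they summed to 31.1 RPKM on day 6 against 3965 RPKM in MEF, with Ptprc, Tyrobp, C1qa, C1qb and Fcer1g at 0 on day 6. The part of such cells in the MEF level was not tested. Igf1 was 11.6 times higher in Tomato-positive NSC than on day 6, a log2 ratio of 2.41. Reads over separate exons gave 8.71 times (7.68 to 9.90). A pseudocount of 4 in place of 1 brought the log2 ratio to 1.35, under 4-fold.

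The exons of Igf1 on chromosome 10 (mm10) showed that this low level held along the transcript. The coding exon at 87864731 to 87864887, 157 bases long, read 249 RPKM in MEF, 1.38 RPKM on day 6, 29.5 RPKM in Tomato-positive NSC, 3.64 RPKM in Tomato-negative NSC, 0 RPKM in brain NSC and iPSC, and 5.59 RPKM in ESC. Those values stand on 1762 reads in MEF, 10 on day 6, 88 in Tomato-positive NSC, 24 in Tomato-negative NSC and 36 in ESC. A count of 0 allows up to 0.708 RPKM in brain NSC and 0.329 RPKM in iPSC for this exon. The long last exon, 6368 bases at 87930675 to 87937042 and mostly untranslated, stood at 8.47% of the coding exon in MEF, 65.6% on day 6, 20.3% in Tomato-positive NSC, 43.9% in Tomato-negative NSC and 21.4% in ESC. Since this exon carries much of the weight in the gene value, the day 6 gene level of Igf1 leans on it more than the MEF level does. Igf1 has alternative first exons, which give different signal peptides. The upstream one, at 87859331 to 87859412, read 2.39 RPKM on day 6 against 300.3 RPKM in MEF, and the downstream one, at 87861329 to 87861385, read 1.53 RPKM on day 6 against 301 RPKM in MEF. In MEF the upstream over downstream ratio of RPKM was 0.998 for these forms, which are 82 and 57 bases long. Their MEF reads were 1108 upstream and 772 downstream, so the balance depended on the measure.

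Igf1r, the receptor, varied least of the 8 genes. It read 22.7 RPKM in MEF, 17.3 RPKM on day 6, 16.8 RPKM in Tomato-positive NSC, 22.4 RPKM in Tomato-negative NSC, 22.6 RPKM in brain NSC, 4.51 RPKM in iPSC and 5.26 RPKM in ESC. The fibroblast, day 6 and neural libraries thus formed a high range of 16.8 to 22.7 RPKM, and both pluripotent libraries lay below it. MEF, brain NSC and Tomato-negative NSC lay within 22.4 to 22.7 RPKM in the gene value, in which the long last exon weighs most. Over separate exons without that exon they read 34.0 RPKM in MEF, 36.9 RPKM in brain NSC and 33.4 RPKM in Tomato-negative NSC. There brain NSC stood above MEF and Tomato-negative NSC beyond counting error, and day 6 and Tomato-positive NSC differed by less than counting error. Day 6 was 3.84 times higher than iPSC and 3.29 times higher than ESC. Neither reached 4-fold on the RPKM + 1 scale. So the day 6 cells had Igf1r nearer to MEF than to the pluripotent lines. Their pluripotency markers summed to 1095 RPKM, of which Pou5f1, a factor of the transgene, gave 886 RPKM.

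Over the 21 exons of Igf1r, the day 6 level lay between 19.7% and 154% of MEF with a median of 64.3%, and 15 of 21 exons were lower. The exons before the last varied over a 6.75-fold range on day 6 and a 4.76-fold range in MEF. Day 6 was uneven for other genes too. Across 4239 genes with at least 8 well-covered exons, the SD over exons of the log2 ratio of 1 library to the mean of the other 6 was, in the median gene, 0.694 for day 6 and 0.198 to 0.316 for the other 6 libraries. For 19 exons of Igf1r it was 0.730 for day 6 and 0.158 to 0.385 for the others, so exon levels scattered most on day 6. The part of this scatter in the gene levels was not tested.

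Igfbp2, a binding protein rich in the fetal brain, was the most abundant of the 8 genes in every library but MEF. It read 1342 RPKM in MEF, 61.8 RPKM on day 6, 1395 RPKM in Tomato-positive NSC, 2089 RPKM in Tomato-negative NSC, 2104 RPKM in brain NSC, 429.7 RPKM in iPSC and 634 RPKM in ESC. The lowest value was on day 6, and the brain and Tomato-negative NSC values differed by less than counting error. Among 21474 protein-coding genes Igfbp2 ranked 20 in brain NSC and 29 in Tomato-negative NSC, 78 in Tomato-positive NSC and 86 in MEF, but 2630 on day 6. Day 6 was at 0.0461 of MEF (95% interval of the read ratio 0.0438 to 0.0468). All 7 annotated exons of Igfbp2, some of which overlap and share reads, were lower on day 6, at 2.43% to 6.87% of MEF.

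Igfbp3, the main Igf carrier in blood, read 564 RPKM in MEF, 5.00 RPKM on day 6, 458 RPKM in Tomato-positive NSC, 739 RPKM in Tomato-negative NSC, 203 RPKM in brain NSC, 4.98 RPKM in iPSC and 35.1 RPKM in ESC. Its highest level was in Tomato-negative NSC, and day 6 and iPSC differed by less than counting error. Tomato-negative NSC stood 3.64 times above brain NSC (3.58 to 3.70) and Tomato-positive NSC 2.26 times above it (2.22 to 2.30), so both converted lines were higher, by less than 4-fold. Day 6 was at 0.00886 of MEF (0.00836 to 0.00964). The 7 annotated exons, some of which overlap and share reads, all lay at 0.305% to 2.20% of MEF on day 6. The neighbouring gene Igfbp1, 3539 bases away on chromosome 11, read 11.5 RPKM in Tomato-negative NSC and 1.15 RPKM or less in each other library.

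Igfbp4, a binding protein that the protease Pappa cuts, read 330.4 RPKM in MEF, 1.67 RPKM on day 6, 110.4 RPKM in Tomato-positive NSC, 219 RPKM in Tomato-negative NSC, 119 RPKM in brain NSC, 2.91 RPKM in iPSC and 28.3 RPKM in ESC. MEF was highest and day 6 lowest. Day 6 was at 0.00505 of MEF (0.00438 to 0.00568). Igfbp5, which binds to extracellular matrix, read 87.2 RPKM in MEF, 0.391 RPKM on day 6, 163 RPKM in Tomato-positive NSC, 96.9 RPKM in Tomato-negative NSC, 224 RPKM in brain NSC, 0.884 RPKM in iPSC and 14.9 RPKM in ESC. For Igfbp5 it was brain NSC that was highest, and day 6 was again lowest. Day 6 was at 0.00448 of MEF (0.00367 to 0.00541). Tomato-positive NSC was 416 times above day 6 (345 to 508), the largest ratio among the 8 genes in that comparison.

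Igfbp7, which is distantly related to the others and binds Igf weakly, was highest in the fibroblast library. It read 1945 RPKM in MEF, 8.58 RPKM on day 6, 119 RPKM in Tomato-positive NSC, 8.18 RPKM in Tomato-negative NSC, 4.66 RPKM in brain NSC, 24.5 RPKM in iPSC and 254 RPKM in ESC. MEF stood above all others, and over all 5 exons day 6 and Tomato-negative NSC differed by less than counting error. Day 6 was at 0.00441 of MEF (0.00391 to 0.00496). Igfbp7 was the most abundant of these genes in MEF, with rank 57 among protein-coding genes, and ranked 8683 on day 6 and 10572 in brain NSC. Its measured exons begin at 77401579 on chromosome 5, downstream of the RefSeq start. The 3′ exon of Igfbp7 shares bases with another gene, and it held 181 of the 279 Igfbp7 reads on day 6. Without this exon the log2 ratio of day 6 to MEF went from -7.67 to -8.58. That of Tomato-negative NSC to day 6 went from -0.06 to 0.41, beyond counting error. The 5 exons of Igfbp7 lay at 0% to 1.02% of MEF on day 6.

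Igfbp6, which prefers Igf2 over Igf1, was the exception on day 6. It read 66.0 RPKM in MEF, 36.1 RPKM on day 6, 10.8 RPKM in Tomato-positive NSC, 0.364 RPKM in Tomato-negative NSC, 2.0 RPKM in brain NSC, 0.372 RPKM in iPSC and 8.44 RPKM in ESC. Day 6 was therefore second to MEF, at 0.547 of it (0.517 to 0.579). It was 97.1 times above iPSC (65.0 to 152) and 4.28 times above ESC (3.83 to 4.79). The exons did not move together. On day 6 the first exon, at 102144362 to 102144884 on chromosome 15, read 42.6 RPKM against 24.8 RPKM in MEF. The second read 61.0 RPKM on day 6 against 100 RPKM in MEF, the third 25.6 RPKM on day 6 against 161 RPKM in MEF and the fourth 19.7 RPKM on day 6 against 82.1 RPKM in MEF. The first exon was thus higher than in MEF and the other 3 lower, at 15.9% to 172% of MEF over the 4. With the highest or the median exon, the log2 ratio of day 6 to MEF was -1.39 in place of -0.85. Exon levels on day 6 were uneven for other genes too, as given for Igf1r.

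**Figure D2:**
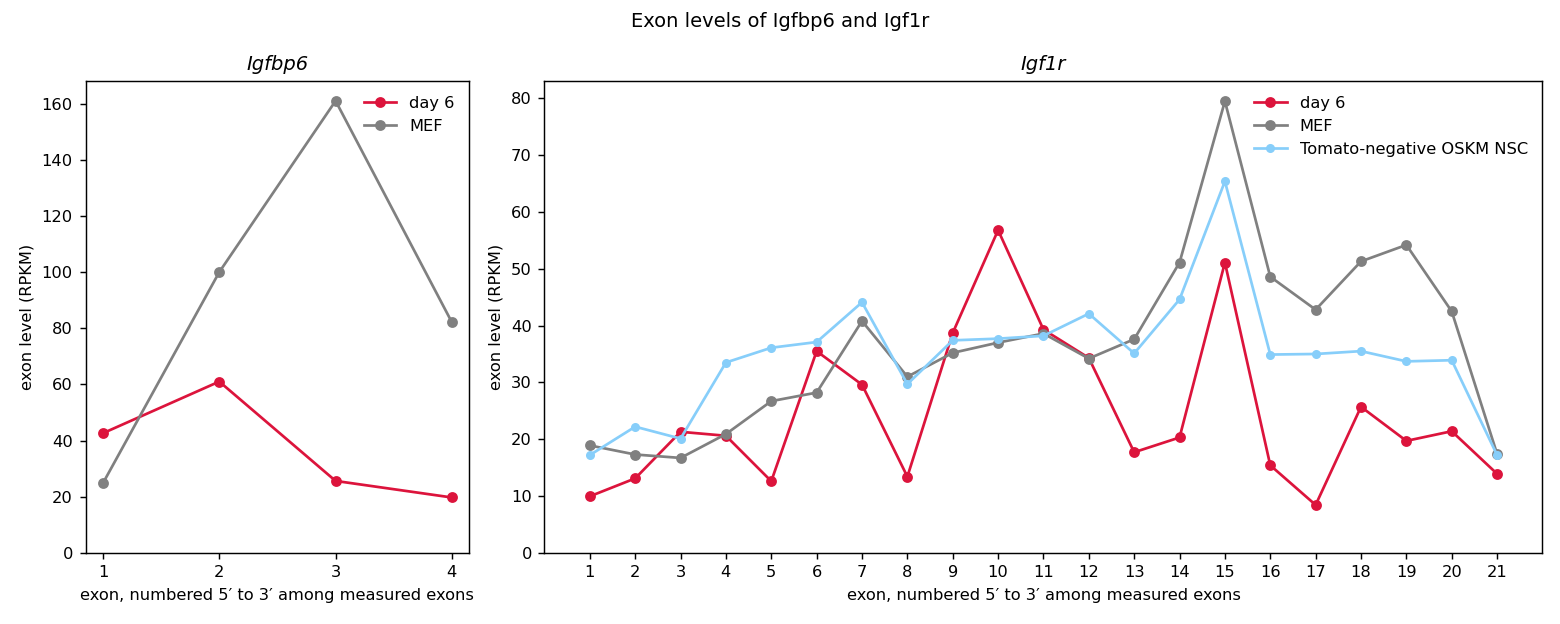
Level of each measured exon in RPKM, numbered 5′ to 3′, for Igfbp6 (left; day 6 and MEF) and Igf1r (right; day 6, MEF and Tomato-negative NSC), with 1 point per exon and library. Day 6 is above MEF in the first exon of Igfbp6 (42.6 against 24.8 RPKM) and below it in the other 3, and 15 of 21 Igf1r exons are lower on day 6 than in MEF.

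The make-up of the 6 binding proteins differed between libraries. Igfbp7 was 44.9% of their summed RPKM in MEF, Igfbp2 31.0% and Igfbp3 13.0%. On day 6 Igfbp2 was 54.4% and Igfbp6 31.8%. Igfbp2 was 61.9% in Tomato-positive NSC, 66.3% in Tomato-negative NSC and 79.2% in brain NSC. Among the pluripotent lines it was 92.7% in iPSC, against 65.1% in ESC, so it led in each library but MEF. Igfbp3 was 20.3% in Tomato-positive NSC, 23.5% in Tomato-negative NSC and 7.64% in brain NSC. Igfbp7 was 5.28% in iPSC, against 26.0% in ESC.

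**Figure D3:**
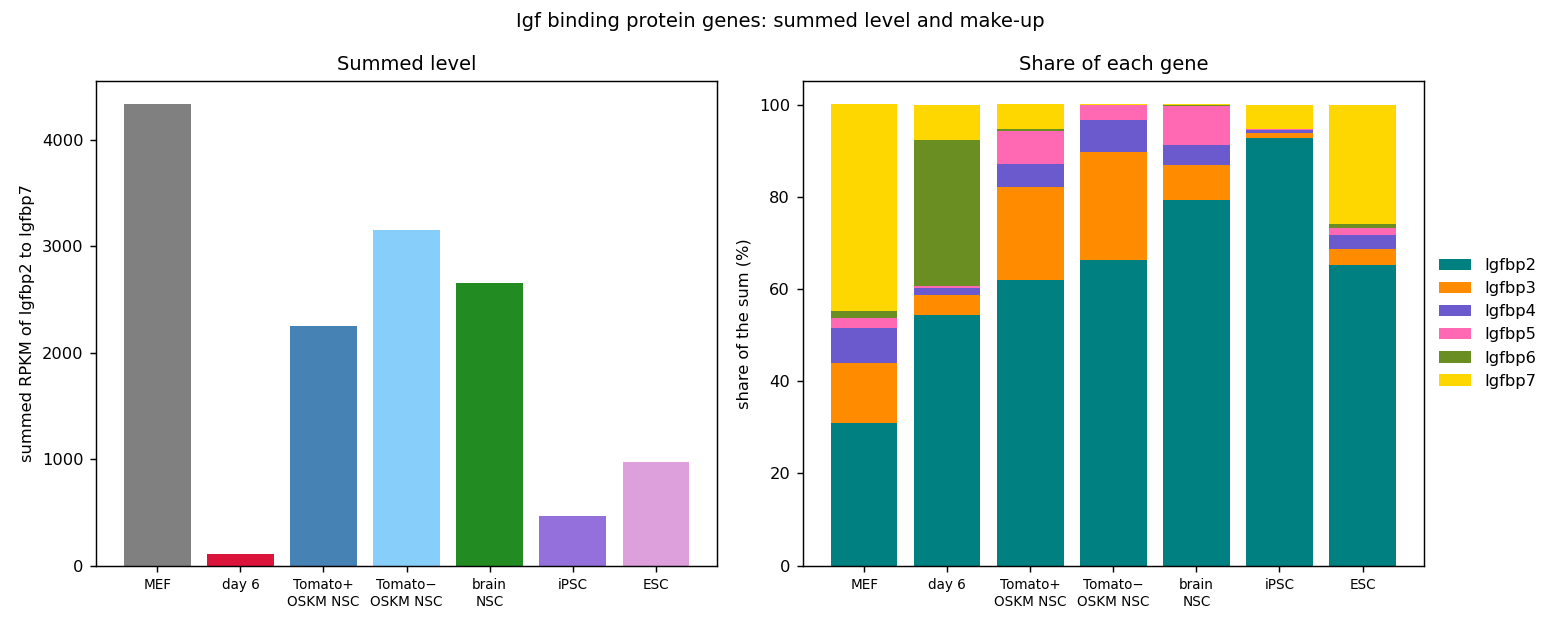
Summed RPKM of Igfbp2 to Igfbp7 (left, 1 bar per library) and the share of each gene in that sum in percent (right, stacked bars) in the 7 libraries. The sum is 114 RPKM on day 6 against 4335 RPKM in MEF, and Igfbp2 takes 31.0% in MEF and between 54.4% and 92.7% in the other 6.

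Tomato-positive NSC against day 6 had 6 of 8 genes higher and 0 lower, where 12.9% of all genes were higher and 6.00% lower. The median log2 ratio of the 8 was 4.05, beside 0.50 over all genes. With median-of-ratios scaling the split was 6 higher and 1 lower, since Igfbp6 passed 4-fold. With a pseudocount of 4 (log2 ratio of Igf1 1.35) or a floor of 8 RPKM it was 5 higher and 0 lower, without Igf1. Tomato-negative NSC against day 6 had 4 higher and 1 lower, where 12.7% of all genes were higher and 8.40% lower, with a median of 2.85 beside 0.31. Igfbp2, Igfbp3, Igfbp4 and Igfbp5 were the 4. Both comparisons share the day 6 library. Of the 12 fibroblast markers, 12 were higher in Tomato-positive NSC than on day 6, and 8 were higher and 4 lower in Tomato-negative NSC than on day 6. They summed to 2337 RPKM in Tomato-positive NSC (median 137 RPKM) and 188 RPKM in Tomato-negative NSC (median 13.4 RPKM), against 347 RPKM on day 6 (median 7.36 RPKM), where Fn1 alone read 217 RPKM. Their part in these results was not tested.

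Comparing the converted lines asks whether cells with and without the Nanog-driven label differ. Tomato-positive against Tomato-negative NSC had 2 of 8 genes higher and 0 lower, where 2.77% of all genes were higher and 0.881% lower, and a median log2 ratio of 0.17 beside 0.19. The 2 were Igfbp6, 29.6 times higher (18.1 to 51.8), and Igfbp7, 14.5 times higher (12.7 to 16.7); with a pseudocount of 4 in place of 1 only Igfbp7 was counted. Igf1 was 4.82 times higher, which was under 4-fold on the RPKM + 1 scale. Igfbp2, Igfbp3, Igfbp4 and Igf1r had log2 ratios of -0.98 to -0.40, and Igfbp5 had 0.74. Fibroblast genes moved the same way as Igfbp6 and Igfbp7. The 12 fibroblast markers were 1.60 to 21.6 times higher in Tomato-positive NSC, with a median of 15.3, and their sum was 2337 RPKM in Tomato-positive NSC against 188 RPKM in Tomato-negative NSC. Their part in the result was not tested. Igfbp2 read 2089 RPKM in Tomato-negative NSC and 2104 RPKM in brain NSC. The markers summed to 188 RPKM and 72.0 RPKM in these libraries, and their part in the Igfbp2 level was not tested either.

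**Figure D4:**
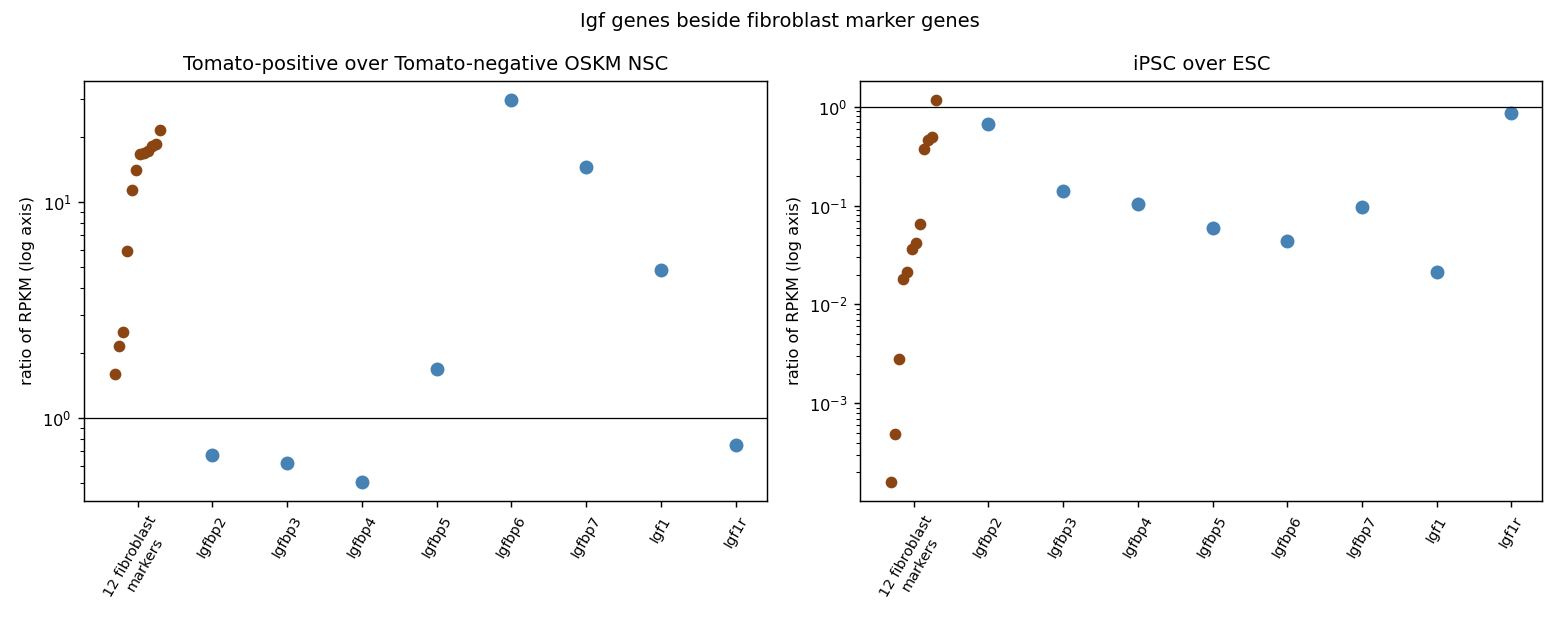
Ratios of the 12 fibroblast markers and of the Igf genes on a log axis, for Tomato-positive over Tomato-negative NSC (left) and iPSC over ESC (right), with 1 point per gene and a line at equal levels. In the first, Igfbp6, Igfbp7 and Igf1 lie at 29.6, 14.5 and 4.82, against 1.60 to 21.6 for the markers.

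Converted lines were also compared with primary brain cells. Tomato-positive NSC had 2 of 8 higher and 0 lower, where 6.99% of all genes were higher and 2.97% lower, with a median of 0.53 beside 0.28. The 2 were Igfbp7, 25.5 times higher (20.6 to 31.9), and Igf1, at 7.94 RPKM in Tomato-positive NSC against 1 read in brain NSC, or 2808 times higher (289 to 63874). With a pseudocount of 4 or a floor of 8 RPKM only Igfbp7 was counted. The fibroblast markers summed to 2337 RPKM in Tomato-positive NSC against 72.0 RPKM in brain NSC, and their part was not tested. Igfbp6 was 5.40 times higher (4.05 to 7.30). Tomato-negative NSC had 0 higher and 0 lower, where 3.10% of all genes were higher and 1.57% lower, with a median of 0.34 beside 0.08, and 1 gene was counted when the highest or the median exon stood for the gene. Igfbp5 was at 0.432 of brain NSC (0.425 to 0.439) in Tomato-negative NSC. Brain NSC against MEF had 0 higher and 3 lower, Igfbp6, Igfbp7 and Igf1, where 7.24% of all genes were higher and 13.3% lower, and a median of -1.46 beside 0.14; the fibroblast markers summed to 72.0 RPKM in brain NSC against 40361 RPKM in MEF.

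Day 6 against iPSC had 1 gene higher, Igfbp6, and 1 lower, Igfbp2, where 6.53% of all genes were higher and 9.83% lower, with a median of -0.21 beside -0.23. Igfbp2 was at 0.144 of iPSC. Without exons shared with another gene the split was 1 higher and 2 lower, and with the highest exon 2 higher and 1 lower. Day 6 against ESC had 0 higher and 5 lower, Igfbp2 to Igfbp5 and Igfbp7, where 4.60% of all genes were higher and 12.6% lower, with a median of -2.96 beside -0.40; with equal totals, median-of-ratios scaling or a pseudocount of 0.25 Igfbp6 also passed 4-fold, giving 1 higher and 5 lower. The fibroblast markers summed to 347 RPKM on day 6, against 621 RPKM in iPSC and 5046 RPKM in ESC. iPSC against ESC had 0 higher and 5 lower, Igfbp3 to Igfbp7, where 1.29% of all genes were higher and 4.39% lower, with a median of -2.69 beside -0.18; a pseudocount of 4 left 3 of them, without Igfbp5 and Igfbp6. The iPSC level of those 5 was 4.41% to 14.2% of ESC, and Igfbp2 and Igf1r stood at 67.8% and 85.8%. The fibroblast markers moved with them: the iPSC level of the 12 was 0.0160% to 117% of ESC with a median of 3.92%, and their sum was 621 RPKM in iPSC against 5046 RPKM in ESC. ESC were grown on MEF feeders and the iPSC label leaves feeders uncertain. The part of feeder RNA was not tested.

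Genes with the most similar pattern were sought among 12194 genes that reached 10 RPKM in a library, by Pearson's r of log2(RPKM + 1) over the 7 libraries. With 7 points that share their libraries, these are descriptions only. Igfbp2 was most like Ankrd46 (0.995), Bcl6 (0.991) and Siah2 (0.987). Igfbp3 was most like Iglon5, Tmem127 and Rgl1 (0.987 each), and Igfbp4 ranked 9 on its list at 0.980. Igfbp4 was most like Cib2 (0.989), Tmod1 (0.987) and Tmem176b (0.987), and Igfbp5 was most like Aph1b (0.993), Prkra (0.992) and Vps4a (0.991). Igfbp7 was most like Aldh1a2 (0.993), Slit3 (0.992) and Serpinf1 (0.991). Igf1 was most like Fmod and Papss2 (0.994 each) and Pear1 (0.985), and Igfbp6 like Serpinb8 (0.984), Kdelc2 (0.981) and Rab3d (0.979). Igf1r was most like Cacna1c (0.994), Crtc3 (0.992) and Kif1c (0.985). Among the 8 themselves, Igfbp3 and Igfbp4 had r of 0.980, Igfbp4 and Igfbp5 0.945, and Igfbp2 and Igfbp6 -0.364.

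The wider pathway was described by 45 genes in 6 lists, for day 6 against MEF beside the 16.1% of all genes that were lower and the 8.23% that were higher. Of 9 binding proteins 6 were lower than in MEF, the 5 named above and Igfbpl1, and of 7 binding protein proteases and inhibitors 6 were lower: Pappa, Pappa2, Stc1, Htra1, Htra3 and Adam12. Of 6 ligands and receptors 3 were lower: Igf1, Igf2 and Igf2r. Igf2 read 4.40 RPKM on day 6 against 3008 RPKM in MEF. Of 8 adaptors and feedback genes 2 were lower, Irs1 and Grb14, and of 12 PI3K and Akt genes 0 were higher and 0 lower, with a median log2 ratio of -0.24. Of 3 Igf2 mRNA-binding proteins 0 were lower, and Igf2bp2 read 244 RPKM on day 6 against 90.9 RPKM in MEF. These counts have no test.

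**Figure D5:**
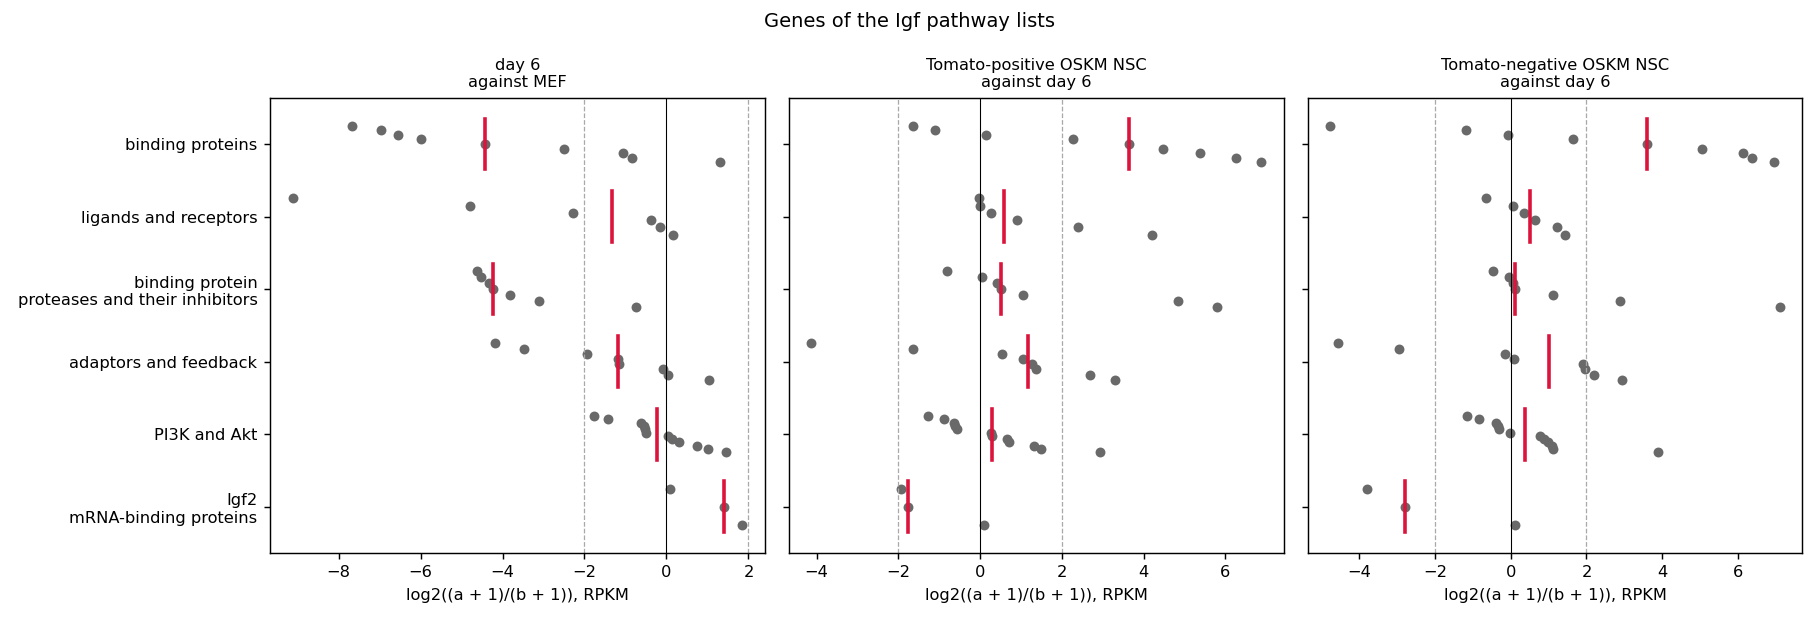
Log2 ratio of RPKM + 1 for the genes of the 6 pathway lists, for day 6 against MEF and the OSKM NSC libraries against day 6, with 1 point per gene, red marks at the list medians and dashed lines at 4-fold. For day 6 against MEF the list medians are -4.42 for binding proteins, -4.22 for proteases and inhibitors and -0.24 for the 12 PI3K and Akt genes, all of which lie inside the dashed lines.

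Against day 6, 12.9% of all genes were higher in Tomato-positive NSC and 12.7% in Tomato-negative NSC. In these comparisons 6.00% of all genes were lower in Tomato-positive NSC and 8.40% in Tomato-negative NSC. Both converted lines had 2 of the 7 proteases and inhibitors higher, Stc1 and Adam12, and 0 lower. Adam12, a protease of binding proteins, read 57.3 RPKM in Tomato-positive NSC and 142 RPKM in Tomato-negative NSC, against 0.0384 RPKM on day 6. Pappa read 0.654 RPKM in Tomato-positive NSC and 0.117 RPKM in Tomato-negative NSC, against 0.160 RPKM on day 6, and Pappa2 likewise was under 0.1 RPKM in all 3. Of the PI3K and Akt list 1 gene, Pik3r1, the regulatory subunit of PI3-kinase, was higher in each, at 59.6 RPKM in Tomato-positive NSC and 116 RPKM in Tomato-negative NSC against 6.87 RPKM on day 6. Of the 8 adaptors and feedback genes, 2 were higher in each line, Irs1 and Grb14. Irs1, an adaptor that carries the receptor's signal, read 10.8 RPKM in Tomato-positive NSC and 12.9 RPKM in Tomato-negative NSC against 0.823 RPKM on day 6. Grb14 read 33.2 RPKM in Tomato-positive NSC and 14.9 RPKM in Tomato-negative NSC against 2.45 RPKM on day 6. Grb10, an adaptor that restrains the receptor, was lower in each, at 0.908 RPKM in Tomato-positive NSC and 0.422 RPKM in Tomato-negative NSC against 32.5 RPKM on day 6, and Socs2 was also lower in Tomato-negative NSC, at 2.39 RPKM against 24.9 RPKM on day 6. All 3 Igf2 mRNA-binding proteins were higher in both converted lines than in brain NSC, where 6.99% of all genes were higher for Tomato-positive and 3.10% for Tomato-negative NSC. Igf2bp3 read 51.6 RPKM in Tomato-positive and 51.5 RPKM in Tomato-negative NSC, against 1.44 RPKM in brain NSC, and Igf2bp2 read 71.4 RPKM in Tomato-positive and 34.7 RPKM in Tomato-negative NSC, against 0.730 RPKM in brain NSC. Htra1 was lower in both, at 25.3 RPKM in Tomato-positive and 20.2 RPKM in Tomato-negative NSC against 122 RPKM in brain NSC. Of all genes, 2.97% were lower than in brain NSC for Tomato-positive and 1.57% for Tomato-negative NSC. Brain NSC were also lower than MEF for all 3 Igf2 mRNA-binding proteins, with a median log2 ratio of -4.24, where 13.3% of all genes were lower.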

How the data were processed

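RNA-seq of 7 mouse cell populations, 1 library each, was used. The authors deposited RPKM per exon; per the submitters' processing notes the tools were CASAVA 1.8.2, Bowtie, TopHat2 2.0.10 and bedtools with build mm10, with roles not given in the sources used here. Exons were matched by ID to GENCODE M21 (270168 of 279252, 96.7%), and the gene value was the exon-length-weighted mean (29686 genes, of which 21474 protein coding). Of the 75 exons of the 8 genes, 28 overlap another exon of the same gene and 1 shares bases with another gene. Depth was inferred from the values, where 1 read is a fixed step. Pairs of libraries were compared on the scale log2((a + 1)/(b + 1)); a gene needed 2 RPKM in either library and a 4-fold ratio to be counted. Read ratios have exact (Clopper-Pearson) 95% intervals from whole reads in separate exons. Except for Igf1, they are printed only where they contain the RPKM ratio. The exons used are a subset, without Igf1r's longest exon, and the gene value counts overlapping exons more than once. A count of 0 was taken to allow 3 reads.

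The 8 genes, the pathway and marker lists and the rule for named genes (the 8 genes in every library and any listed gene with its values) were chosen with earlier results of these data known. The 3 genes nearest in pattern were named by correlation. There were 10 comparisons and no test, because each group had 1 library. The steps were tested on simulated data. Python 3.11.15, numpy 2.4.6, pandas 2.3.3, SciPy 1.17.1 and matplotlib 3.10.9 were used.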

Additional observations from a re-analysis of the deposited data

How the results depend on the processing

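Member counts were recomputed under 10 other settings, of which 1, the median exon, was chosen after seeing the data. Counts moved by more than 1.5 times in 6 cases: with pseudocount 4, Tomato-positive against Tomato-negative NSC gave 1 in place of 2, Tomato-positive against brain NSC 1 in place of 2 and iPSC against ESC 3 in place of 5; with a floor of 8 RPKM, Tomato-positive against brain NSC gave 1; with the highest exon and with the median exon, Tomato-negative against brain NSC gave 1 in place of 0. Of 640 gene ratios under alternatives, 251 lay within the counting interval of the read ratio over separate exons, and 389 lay outside it. This interval does not always hold the reported ratio. For Igf1 on day 6 against MEF the reported -4.78 lay outside it, and -5.61 with a pseudocount of 0.25 lay inside. These counts therefore do not show how far the ratios shifted. The sign turned in 15 of the 640, all of them ratios whose reported log2 value was at most 0.55 in size, and in 0 of those at 4-fold or more. Scaling to equal totals shifted log2 levels by -0.29 to 0.31 and median-of-ratios by -0.30 to 0.25. The library with the highest level stayed the same for 8 of 8 genes under median-of-ratios scaling and without shared exons, and for 7 of 8 under equal totals, the highest exon, the median exon and separate exons only, where Igf1r or Igfbp2 changed. Leaving out a replicate was not possible with 1 library per group. No paired analysis was possible because each group had 1 library. Depth limits Igf1 in brain NSC and iPSC, where it rests on 1 and 19 reads.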
